A study of Mus musculus with 18 samples.

Results

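The early change described here is the difference between 15 min of hydrogen peroxide and no treatment, taken within each of 2 mouse fibroblast lines and set side by side. Its members are the 6369 genes with a single unrepeated symbol in both the 0 min and the 15 min table, out of 10110 genes listed in any of the 3 tables of the series. The study used immortalized mouse embryonic fibroblast lines, 1 wild type (WT) and 1 carrying eIF2aS51A (S51A), in which serine 51 of eIF2α, the site that stress kinases phosphorylate, is replaced by alanine. The 4 groups used here were untreated WT, WT after 15 min in 500 µM hydrogen peroxide, untreated S51A and S51A after 15 min in 500 µM hydrogen peroxide. The labels list 3 samples in each, 12 here and 18 in the series, while the design text speaks of duplicates. Each genotype is a single line, so line and genotype cannot be told apart, and the labels do not say whether samples came from separate cultures.

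Phosphorylated eIF2α slows translation initiation and, in the integrated stress response, raises translation of ATF4, a transcription factor for amino acid and stress genes. Hydrogen peroxide is an oxidant that also activates kinase cascades. Immediate early genes such as Fos and Egr1 are transcribed within minutes of such signals without prior protein synthesis, and their transcripts are short-lived. An early time point precedes most of the slower ATF4, NRF2 and heat shock programmes.

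The deposited tables give 1 FPKM value (fragments scaled by transcript length and by mapped fragments) per group and gene, and list only genes called different between the lines. Neither the spread between samples nor the depth is known, so no error or test can be given and every change below is a description. A change is the log2 ratio of FPKM plus 1 after peroxide to FPKM plus 1 before it, less the median of the 6369 genes. Because 1 is added, it understates changes of weakly expressed genes. Where a pair of FPKM values is given for a line, the untreated value comes before the 15 min value. A gene past 1.5-fold has a centred change of at least that size. The 0 and 15 min tables may have been normalized separately. Of the 6369 genes, 5463 had at least 1 FPKM in all 4 groups and 73 were listed at 0 in at least 1 group. A further 1180 usable genes stood only in the 0 min table and 1920 only in the 15 min table, and are not described. A gene whose lines drew level at either time is therefore not among the members. Fibroblast markers were represented by 9 of 16 genes, with a summed level of 2441 and 2251 FPKM in WT at 0 and 15 min and 3516 and 3481 FPKM in S51A. Vim, an intermediate filament gene, was at 1652 to 1872 FPKM in WT. The endothelial list had 0 of 8 genes in both tables and the epithelial list 1 of 12, Krt19, at 5.21 to 10.1 FPKM. The muscle list had 2 of 8, Acta2 and Cnn1. Their summed level was 24 and 21.99 FPKM in WT and 122.7 and 120.9 FPKM in S51A. The neural list had 3 of 6, Tubb3, Nes and Map2. These summed to 74.3 and 79.2 FPKM in WT and 112.8 and 110.7 FPKM in S51A. A gene absent from a table was not called, which does not mean that it was not expressed.

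Most genes hardly moved in 15 min. The change lay within 0.2 of the median for 74.3% of genes in WT and 89.6% in S51A, and its standard deviation across genes was 0.19 in WT and 0.13 in S51A. In WT, 18 genes (0.283%) were higher past 1.5-fold and 14 (0.22%) lower. In S51A, 8 genes (0.126%) were higher and 6 (0.0942%) lower. At 1.25-fold the counts were 248 higher (3.89%) and 291 lower (4.57%) in WT, and 65 higher (1.02%) and 63 lower (0.989%) in S51A. Only 4 genes in WT, all lower, and 5 in S51A, 3 higher and 2 lower, passed 2-fold. With 1 value per group, these counts have no replicate check. The plot of each gene's WT change against its S51A change shows where the named genes stand.

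**Figure D1:**
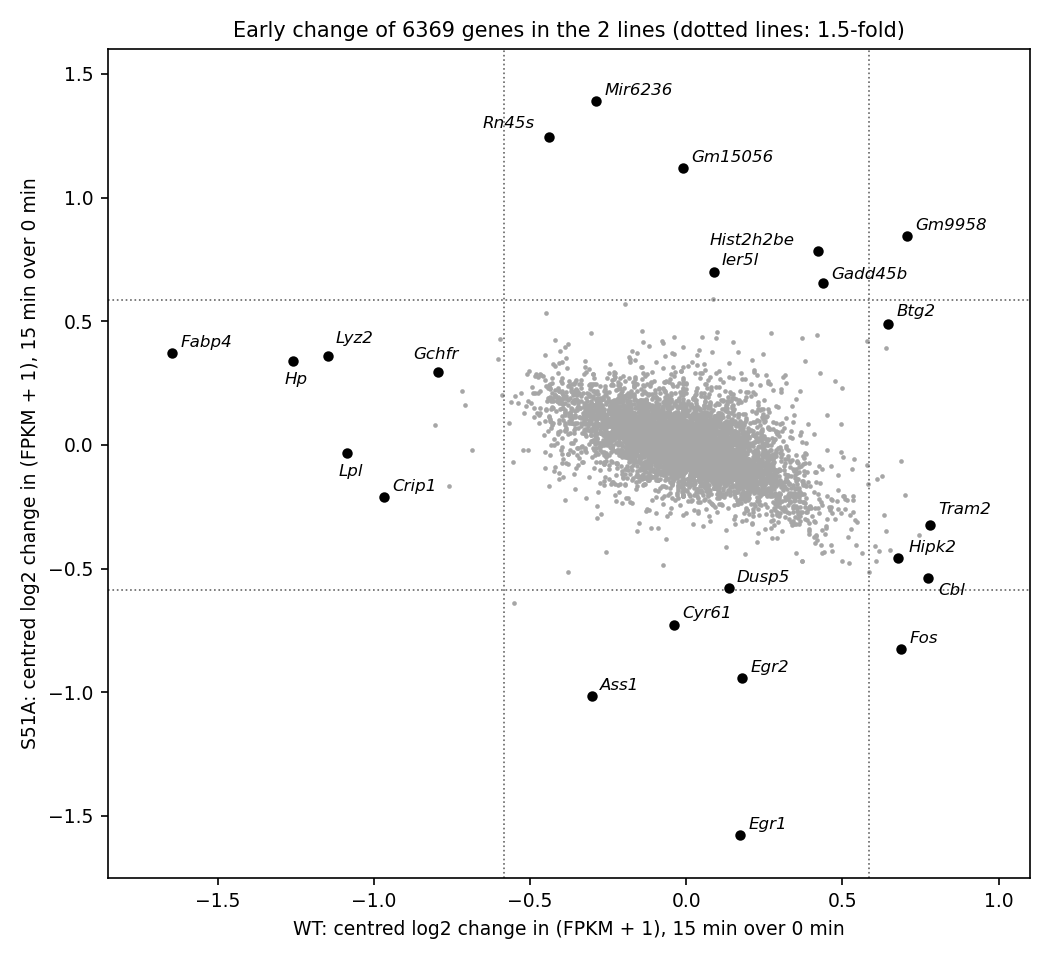
Centred log2 change in FPKM plus 1 from 0 to 15 min in WT (horizontal axis) and in S51A (vertical axis), each point 1 of the 6369 genes. Most points lie near 0, Egr1 stands lowest in S51A at -1.58 and Fabp4 lowest in WT at -1.65.

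Immediate early and AP-1 genes, 37 of the 6369 members, were prominent among the few changes past 1.5-fold in S51A. As a list they did not move one way, with a median of 0.01 in that line. Egr1 and Egr2, zinc finger transcription factors, Fos, a subunit of the AP-1 transcription factor, and Cyr61, a secreted matrix protein gene, make up 4 of the 6 genes lower past 1.5-fold in that line. Gadd45b, a growth arrest and stress signalling gene, is among the 8 higher. No promoter is printed for Egr1 or Egr2. The promoters of 4 early genes with large changes are printed below, and differ in the short elements they hold. They are RefSeq windows of 300 nt on GRCm38.p6, reaching from upstream of the start site to just past it. Elements outside a window, such as any further upstream, were not searched. Fos lies at chr12:85473640-85473939 on the plus strand and Cyr61, named Ccn1 in RefSeq, at chr3:145649936-145650235 on the minus strand. Btg2 lies at chr1:134079106-134079405 on the minus strand and Gadd45b at chr10:80929841-80930140 on the plus strand. Capitals mark the cAMP response element TGACGTCA, its core TGACG, the AP-1 site TGANTCA, the TATA element TATAAA and the serum response element (CArG box). These were searched on both strands, as were the NRF2-type core TGACNNNGC, the heat shock unit GAANNTTC and the ATF4 composite TGATGNAA, which are not in capitals.
Fos: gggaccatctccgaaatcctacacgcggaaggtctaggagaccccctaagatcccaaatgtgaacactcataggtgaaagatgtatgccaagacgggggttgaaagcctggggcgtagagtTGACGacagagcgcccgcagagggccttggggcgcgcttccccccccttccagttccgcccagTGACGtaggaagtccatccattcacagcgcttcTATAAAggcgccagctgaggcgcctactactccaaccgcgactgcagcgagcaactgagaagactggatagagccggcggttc
Cyr61: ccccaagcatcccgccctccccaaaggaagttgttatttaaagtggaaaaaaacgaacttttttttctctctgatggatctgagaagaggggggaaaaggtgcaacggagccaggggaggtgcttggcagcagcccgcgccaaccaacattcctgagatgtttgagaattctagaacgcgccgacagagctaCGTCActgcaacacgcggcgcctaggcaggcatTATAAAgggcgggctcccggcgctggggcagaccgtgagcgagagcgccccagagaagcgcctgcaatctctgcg
Btg2: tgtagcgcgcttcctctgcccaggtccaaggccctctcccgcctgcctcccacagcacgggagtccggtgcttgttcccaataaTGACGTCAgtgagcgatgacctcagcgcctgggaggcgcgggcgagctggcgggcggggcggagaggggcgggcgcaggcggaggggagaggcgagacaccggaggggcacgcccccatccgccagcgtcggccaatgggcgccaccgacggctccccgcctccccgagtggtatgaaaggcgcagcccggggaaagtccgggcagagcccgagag
Gadd45b: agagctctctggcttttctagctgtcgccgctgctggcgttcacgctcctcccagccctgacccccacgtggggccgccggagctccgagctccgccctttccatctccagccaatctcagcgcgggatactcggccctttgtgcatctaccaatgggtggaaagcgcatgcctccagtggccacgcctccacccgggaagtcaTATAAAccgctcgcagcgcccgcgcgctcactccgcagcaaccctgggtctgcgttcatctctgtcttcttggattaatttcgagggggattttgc

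The Fos window holds the core TGACG at -129 and -66 and TATAAA at -33, counted from the start site. Cyr61 has the core on the other strand at -58, overlapped by a TGACNNNGC match at -62, and TATAAA at -25. Btg2 holds the full cAMP response element at -166, and Gadd45b holds TATAAA at -46. Of all 32851 promoter windows of this length, 20.8% hold the core TGACG, 1.79% the full element, 13.6% TATAAA, 7.81% the AP-1 site and 1.63% the serum response element. Among the 5111 members with a window the shares were 35.8% for the core, 3.33% for the full element, 8.94% for TATAAA, 6.38% for the AP-1 site and 1.58% for the serum response element. Of the 30 genes past 1.5-fold with a window, TGACG was in 8, TATAAA in 4 and the AP-1 site in 2. The full element and the serum response element were in 1 each. TGACNNNGC was in 8 of the 30, GAANNTTC in 1 and TGATGNAA in 0. Over all windows, TGACNNNGC stands in 12.4%, GAANNTTC in 7.86% and TGATGNAA in 3.97%. Among the members with a window these shares were 17.2%, 6.65% and 2.8%. The core is part of the full element, so these matches overlap. A match is a run of letters and not a measured site. A window was found for 5111 of the 6369 members and for 30 of the 44 genes past 1.5-fold in either line.

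Egr1 (chromosome 18, 34861207 to 34864956, mm10) was at 46.9 FPKM in untreated S51A and 15.2 FPKM at 15 min. In WT it was at 23.3 and 26.5 FPKM. S51A cells thus held more Egr1 transcript than WT before peroxide and less at 15 min. The level in S51A was 3.07-fold lower at 15 min, a centred change of -1.58, against 0.17 in WT. Egr2 (chromosome 10, 67537869 to 67542188) was at 3.92 and 1.59 FPKM in S51A and at 0.702 and 0.940 FPKM in WT, with changes of -0.94 and 0.18. Both Egr genes were lower at 15 min only in the S51A values, and the difference between the lines has no test.

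Fos (chromosome 12, 85473901 to 85477270) moved in opposite directions. It was at 1.48 FPKM in untreated WT and 3.03 FPKM at 15 min, and at 14.8 and 8.06 FPKM in S51A. The centred changes were 0.69 in WT and -0.82 in S51A, and Fos was the only gene past 1.5-fold upward in WT and downward in S51A. At both times S51A held more Fos transcript than WT. Cyr61 (chromosome 3, 145646971 to 145649985) was at 207 and 202 FPKM in WT, and S51A held 263 and 161 FPKM, with changes of -0.04 and -0.73. Dusp5, a phosphatase that inactivates ERK (chromosome 19, 53529318 to 53541322), was at 31.3 and 34.8 FPKM in WT, and S51A held 10.1 and 6.50 FPKM, a change of -0.58 in S51A. Errfi1, a feedback inhibitor of the EGF receptor, followed with -0.41 in S51A and 0.13 in WT.

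Other early genes were higher at 15 min in both lines. Btg2, an antiproliferative p53 target (chromosome 1, 134074865 to 134079155), was at 1.89 and 3.56 FPKM in WT, and S51A held 6.77 and 10.1 FPKM, with changes of 0.65 and 0.49. Gadd45b (chromosome 10, 80930091 to 80932204) was at 32.2 and 44.3 FPKM in WT, and S51A held 77.7 and 124.5 FPKM, with changes of 0.44 and 0.65. Arc, an early gene best known in neurons, was at 1.61 and 2.93 FPKM in WT, and S51A held 3.05 and 4.50 FPKM. In all 3 the 15 min value was above the untreated value in each line. Ier5l, an immediate early response family member, was at 11.2 and 19.2 FPKM in S51A and at 30.9 and 33.1 FPKM in WT. Id1, an inhibitor of helix-loop-helix factors, was at 24.2 and 37.0 FPKM in S51A and at 104.7 and 91.8 FPKM in WT. The changes of Ier5l and Id1 were 0.70 and 0.57 in S51A and 0.09 and -0.20 in WT. Jun, at 52.0 and 58.1 FPKM in WT and 25.8 and 27.9 FPKM in S51A, and Myc, at 96.3 and 91.1 FPKM in WT and 26.7 and 26.5 FPKM in S51A, hardly moved.

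**Figure D2:**
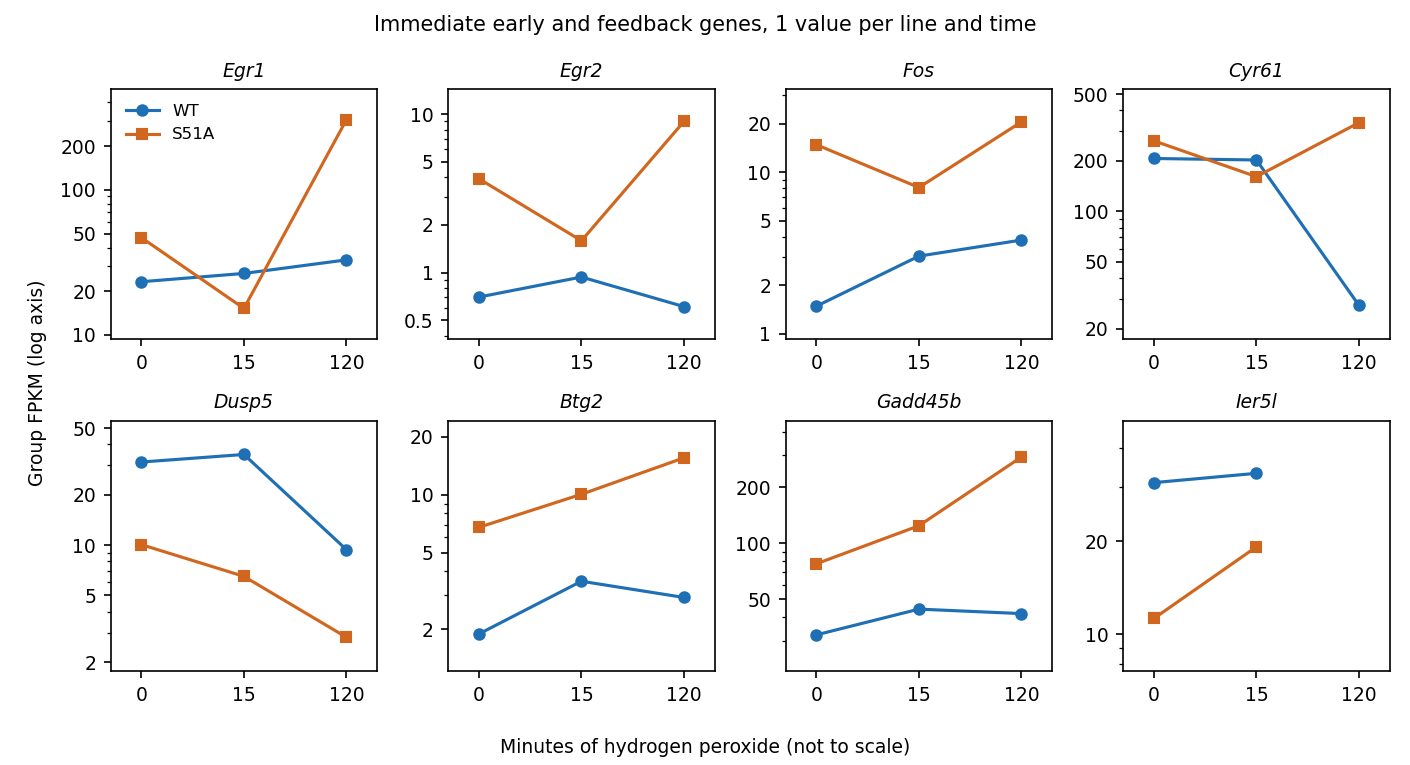
FPKM at 0, 15 and 120 min of hydrogen peroxide in WT and S51A for early genes, 1 deposited group value per point and no error available. Egr1 in S51A goes from 46.9 to 15.2 FPKM at 15 min and stands at 304 FPKM at 120 min, while Gadd45b in S51A is higher at each later time.

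Of the 53 immediate early and AP-1 genes listed, 37 had an early change. Their median was 0.09 in WT and 0.01 in S51A, beside 0 for all genes by construction. In WT, 5 were higher past 1.25-fold (Fos, Btg2, Arc, Gadd45b and Zfp36l2) and 0 lower. In S51A, 5 were higher (Gadd45b, Id1, Btg2, Arc and Txnip) and 5 lower (Egr1, Egr2, Fos, Cyr61 and Errfi1). Beside these counts, 3.89% of all genes were higher and 4.57% lower past 1.25-fold in WT, and 1.02% and 0.989% in S51A. By sign alone, 22 members were above 0 and 15 below in WT, and 20 above and 17 below in S51A. Of the MAPK phosphatase and Sprouty genes, which damp the same kinase cascade, 13 of 17 were present, with medians of 0.13 in WT and -0.07 in S51A. Past 1.25-fold they were Spred2 in WT, higher, and Dusp5 in S51A, lower.

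The 120 min values of these genes are given beside the early ones, since both changes use the same 0 min values. In S51A at 120 min Egr1 was at 304 FPKM, Egr2 at 9.0, Fos at 20.5 and Cyr61 at 338 FPKM, each above both its 0 and its 15 min level. Gadd45b was then at 292 FPKM and Btg2 at 15.6 FPKM in S51A. In WT at 120 min Egr1 was at 32.9 FPKM, Fos at 3.81 and Cyr61 at 27.5 FPKM. The low values of Egr1, Egr2, Fos and Cyr61 in S51A at 15 min were therefore the lowest of their 3 times.

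Genes of the integrated stress response moved little in either line, as did most genes. Of the 39 listed, 27 were present, with medians of -0.01 in WT and 0.03 in S51A, and Ddit4, an mTORC1 inhibitor, was the only one past 1.25-fold. It was higher in both lines, at 17.8 and 23.6 FPKM in WT and 30.5 and 39.4 FPKM in S51A. Chac1, a glutathione-degrading enzyme, was at 16.8 and 19.4 FPKM in WT, and S51A held 4.41 and 3.68 FPKM. Atf4 was at 313 and 310.8 FPKM in WT, and S51A held 245.6 and 266.9 FPKM. The changes of Trib3, a pseudokinase induced by ATF4, were -0.09 in WT and 0.11 in S51A, and those of Asns, asparagine synthetase, were -0.16 and 0.01. Sesn2, a stress-induced regulator of mTORC1, had changes of 0.11 and -0.20. Eif2s1, which encodes eIF2α, was at 91.8 and 90.5 FPKM in WT, and S51A held 45.3 and 45.6 FPKM. Eef2k, the kinase of elongation factor eEF2, had changes of 0.11 and 0.02. None of the 18 tRNA synthetase genes present, of 20 listed, passed 1.25-fold in either line. Over all genes, 3.89% were higher and 4.57% lower past 1.25-fold in WT, and 1.02% and 0.989% in S51A. The low counts therefore do not set these lists apart.

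Few antioxidant and inflammatory genes passed 1.25-fold, which was also true of all genes. The shares over all genes were 3.89% higher and 4.57% lower in WT, and 1.02% and 0.989% in S51A. Of 53 antioxidant and NRF2 target genes, 30 were present, and Osgin1, an oxidative stress growth inhibitor, was the only one past 1.25-fold, at 5.78 and 7.62 FPKM in S51A. Hmox1, heme oxygenase and an NRF2 target, was at 233.9 FPKM at both times in WT, and S51A held 45.3 and 48.2 FPKM. Of 38 NF-kB targets and cytokines, 28 were present, and Ccl2, a monocyte chemokine, was lower past 1.25-fold in WT, at 419 and 331 FPKM. Of 26 heat shock chaperones, 20 were present, and past 1.25-fold were Hspa1b, higher, and Hspe1, lower, in WT and Hspa1a, higher, in S51A. Hspa1b, an inducible HSP70 gene, was at 1.20 and 2.13 FPKM in WT, and S51A held 12.3 and 14.8 FPKM. Its near-identical neighbour Hspa1a was at 1.58 and 2.48 FPKM in S51A and at or near 0 in WT, and reads of this pair may have been shared. Hspe1, a mitochondrial chaperonin subunit, was lower in WT, at 478 and 380 FPKM.

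The 4 genes lower past 2-fold in WT were Fabp4, Hp, Lyz2 and Lpl. Fabp4, a fatty acid carrier of adipocytes and macrophages (chromosome 3, 10204343 to 10208576), was at 30.3 FPKM in untreated WT and 9.06 FPKM at 15 min, a 3.34-fold lower level. In S51A it was at 16.6 and 22.0 FPKM. Hp, the haemoglobin-binding plasma protein haptoglobin (chromosome 8, 109575128 to 109579172), was at 8.69 and 3.07 FPKM in WT, and S51A held 4.41 and 5.94 FPKM. Both genes were higher in WT than in S51A before peroxide and lower at 15 min. Lyz2, a myeloid lysozyme (chromosome 10, 117277541 to 117282272), was at 2.11 and 0.415 FPKM in WT, and S51A held 0.476 and 0.920 FPKM. Lpl, lipoprotein lipase (chromosome 8, 68880555 to 68906932), was at 3.05 and 0.920 FPKM in WT, and S51A held 0.183 and 0.172 FPKM. The centred WT changes were -1.65, -1.26, -1.15 and -1.09 in that order. Fabp4 and Lpl stood at 30.9 and 3.23 FPKM in WT at 120 min, close to their untreated levels, whereas Hp and Lyz2 are not in that table.

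Of 10 macrophage and blood markers, 2 were in both tables, Lyz2 and Cd14. Cd14, an endotoxin co-receptor, was at 15.1 and 14.7 FPKM in WT, and S51A held 10.5 and 11.96 FPKM. The summed level of the pair was 17.2 and 15.1 FPKM in WT and 10.96 and 12.9 FPKM in S51A. In bulk RNA, fewer cells of a type and less RNA per cell cannot be told apart, and whether another cell type had a part in the WT changes was not tested. Of the other 10 genes lower past 1.5-fold in WT, Cdo1, cysteine dioxygenase, was at 1.03 and 0.174 FPKM and Crip1, a LIM protein gene, at 3.97 and 1.56 FPKM. Gchfr, a feedback regulator of tetrahydrobiopterin synthesis, was at 19.7 and 11 FPKM. The S51A change was above 0 for 10 of the 14. That is near the share over all genes, where 3184 were below 0 in WT and 2200 of those above 0 in S51A. The locus deposited under the symbol Mir703 spans far more than a miRNA hairpin, so its values do not measure that miRNA.

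**Figure D3:**
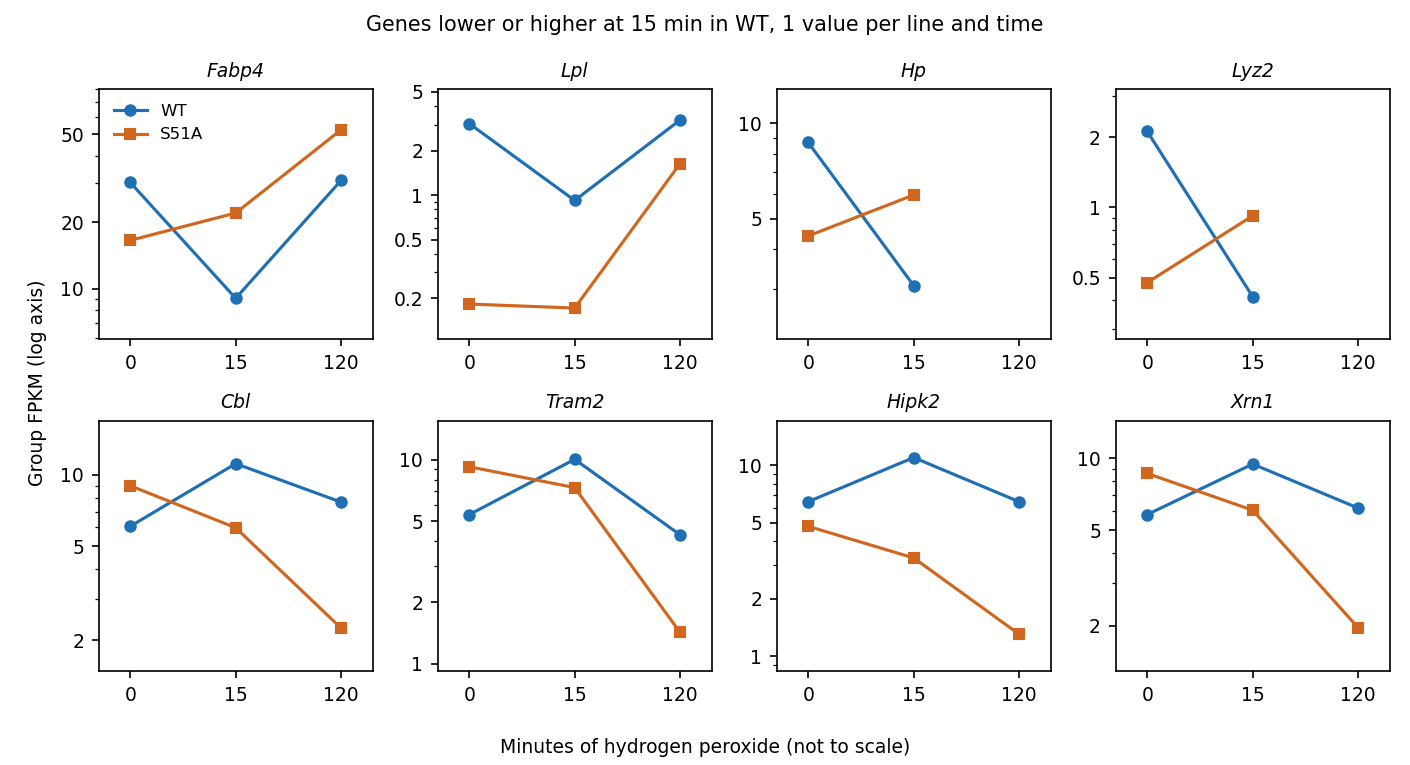
FPKM at 0, 15 and 120 min in WT and S51A for 8 genes with large changes in WT, 1 deposited group value per point, and no point where a gene is not in the 120 min table. Fabp4 in WT goes from 30.3 to 9.06 FPKM and stands at 30.9 FPKM at 120 min.

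The 18 genes higher past 1.5-fold in WT were led by long transcripts. Tram2, an endoplasmic reticulum translocon protein, was at 5.39 and 10.1 FPKM in WT, and S51A held 9.25 and 7.31 FPKM. Cbl, an E3 ubiquitin ligase that ends receptor tyrosine kinase signalling (chromosome 9, 44149262 to 44234046), was at 6.06 and 11.2 FPKM in WT, and S51A held 9.0 and 5.98 FPKM. Its changes were 0.77 and -0.54. Slfn9, of the Schlafen family, was at 13.8 and 23.3 FPKM in WT. Hipk2, a stress-linked kinase, was at 6.45 and 11 FPKM, and Xrn1, the main cytoplasmic 5′ to 3′ exonuclease, at 5.82 and 9.45 FPKM. The S51A change was below 0 for 15 of the 18, with Btg2 and Gm9958 among the exceptions. When centred within length bins it was below 0 for 13 of the 18. Over all genes, 3184 were above 0 in WT and 2201 of those below 0 in S51A. The share over all genes within length bins was not computed. Their median transcript length was 8037 nt, and 11 of the 18 were among the longest 10% of genes.

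Across all genes the early change followed transcript length, in opposite directions in the 2 lines. Length was that of the longest GENCODE M21 transcript, known for 6352 genes. In the shortest 10% of genes the median change was -0.22 in WT and 0.11 in S51A, and in the longest 10% it was 0.21 in WT and -0.14 in S51A. Spearman's rho across genes was 0.585 in WT and -0.529 in S51A. With the median transcript length of each gene it was 0.358 and -0.27, and with GC content -0.122 and 0.135. Genes are not independent replicates, and all values of a group share their libraries, so these are descriptions of 4 group profiles. Of the WT genes past 1.25-fold, 148 of 248 higher were in the longest 10% and 156 of 291 lower in the shortest. In S51A, 46 of 63 lower were in the longest 10% and 26 of 65 higher in the shortest. Centred within 10 length bins instead, 6 of the 18 WT genes higher past 1.5-fold and 8 of the 14 lower stayed past it, as did 5 of the 8 higher and 5 of the 6 lower in S51A. Fos stayed past it in both lines, as did Egr1, Egr2 and Cyr61 in S51A and Fabp4, Hp, Lyz2 and Lpl in WT. The cause of the relation to length was not tested.

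**Figure D4:**
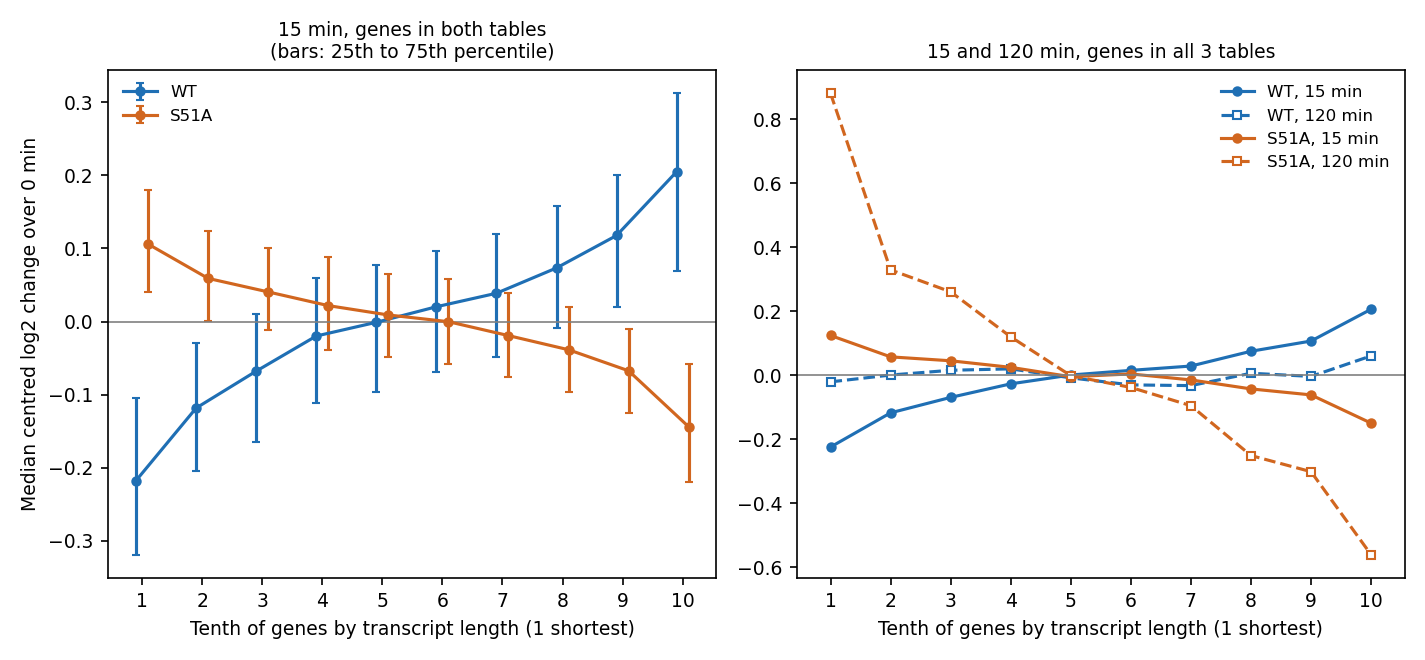
Median centred log2 change from 0 to 15 min in 10 bins of genes ordered by the length of the longest transcript, with bars from the 25th to the 75th percentile (left), and at 15 and 120 min for genes in all 3 tables (right), for WT and S51A. WT goes from -0.22 in the shortest 10% to 0.21 in the longest, and S51A from 0.11 to -0.14.

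Many genes moved oppositely in the 2 lines. The WT and S51A changes had Pearson's r of -0.486 and Spearman's rho of -0.515 across the 6369 genes, and 69.1% had opposite signs. Centred within length bins, r was -0.279 and rho -0.335. Past 1.25-fold in both lines, 38 genes were higher in WT and lower in S51A, 17 were lower in WT and higher in S51A, 9 were higher in both and 2 lower in both. The 38 include Huwe1 and Ubr4, large E3 ubiquitin ligases, at 29.7 and 45.3 FPKM and 11.2 and 16.7 FPKM in WT, and Polr2a, the largest RNA polymerase II subunit. Polr2a was at 39.4 and 57.3 FPKM in WT, and S51A held 50.9 and 39.7 FPKM. In genes of all 3 tables the 120 min change, which shares the 0 min values, had medians of -0.02 and 0.06 in the shortest and longest 10% in WT. In S51A these were 0.88 and -0.56.

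Among the 9 genes higher past 1.25-fold in both lines were Arc, Btg2, Ddit4, Gadd45b, Hexim1 and Hotairm1. They were picked out after their values were seen. Hexim1, an inhibitor of the elongation kinase P-TEFb, was at 29.5 and 38.6 FPKM in WT, and S51A held 20.8 and 28.8 FPKM. Hotairm1, a long noncoding RNA of the Hoxa cluster, was at 32.0 and 43.4 FPKM in WT, and S51A held 14.3 and 20.1 FPKM. All 9 were above their untreated level in each line. Lower in both were Malat1, a nuclear noncoding RNA, at 33.8 and 26.0 FPKM in WT and 24.8 and 17.3 FPKM in S51A, and LOC100504703.

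Genes of the translation and respiration machinery moved mostly one way within each line. All 59 cytosolic ribosomal protein genes present had a change below 0 in WT and above 0 in S51A, with medians of -0.35 and 0.19. Rps24 was at 1067 and 744 FPKM in WT, and S51A held 724 and 849 FPKM. Rpl41 was at 1438 and 1031 FPKM in WT, and S51A held 1184 and 1389 FPKM. In WT 34 of the 59 were lower past 1.25-fold, and in S51A Rpl36al alone was higher. Many ribosomal protein genes have processed pseudogenes, so reads may have been shared with copies. The 28 oxidative phosphorylation subunits had medians of -0.29 and 0.10, the 43 mitochondrial ribosomal proteins -0.24 and 0.10 and the 27 proteasome subunits -0.22 and 0.12. Transcripts in these lists were mostly shorter than the median of 3470.5 nt for all genes. The list medians were 1106 nt for cytosolic ribosomal proteins, 1231.5 nt for oxidative phosphorylation, 1955 nt for the proteasome and 2294 nt for mitochondrial ribosomal proteins. The length bin of Rps24 rests on its longest annotated transcript, of 4059 nt, which need not be the form expressed. Its WT change was -0.53, or -0.57 once centred within that bin. Centred within length bins, the ribosomal protein medians were -0.18 and 0.09 and those of oxidative phosphorylation -0.08 and 0.01. The 42 matrix genes, many of them long, had medians of 0.06 and -0.05, and -0.01 and -0.02 once centred within length bins.

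**Figure D5:**
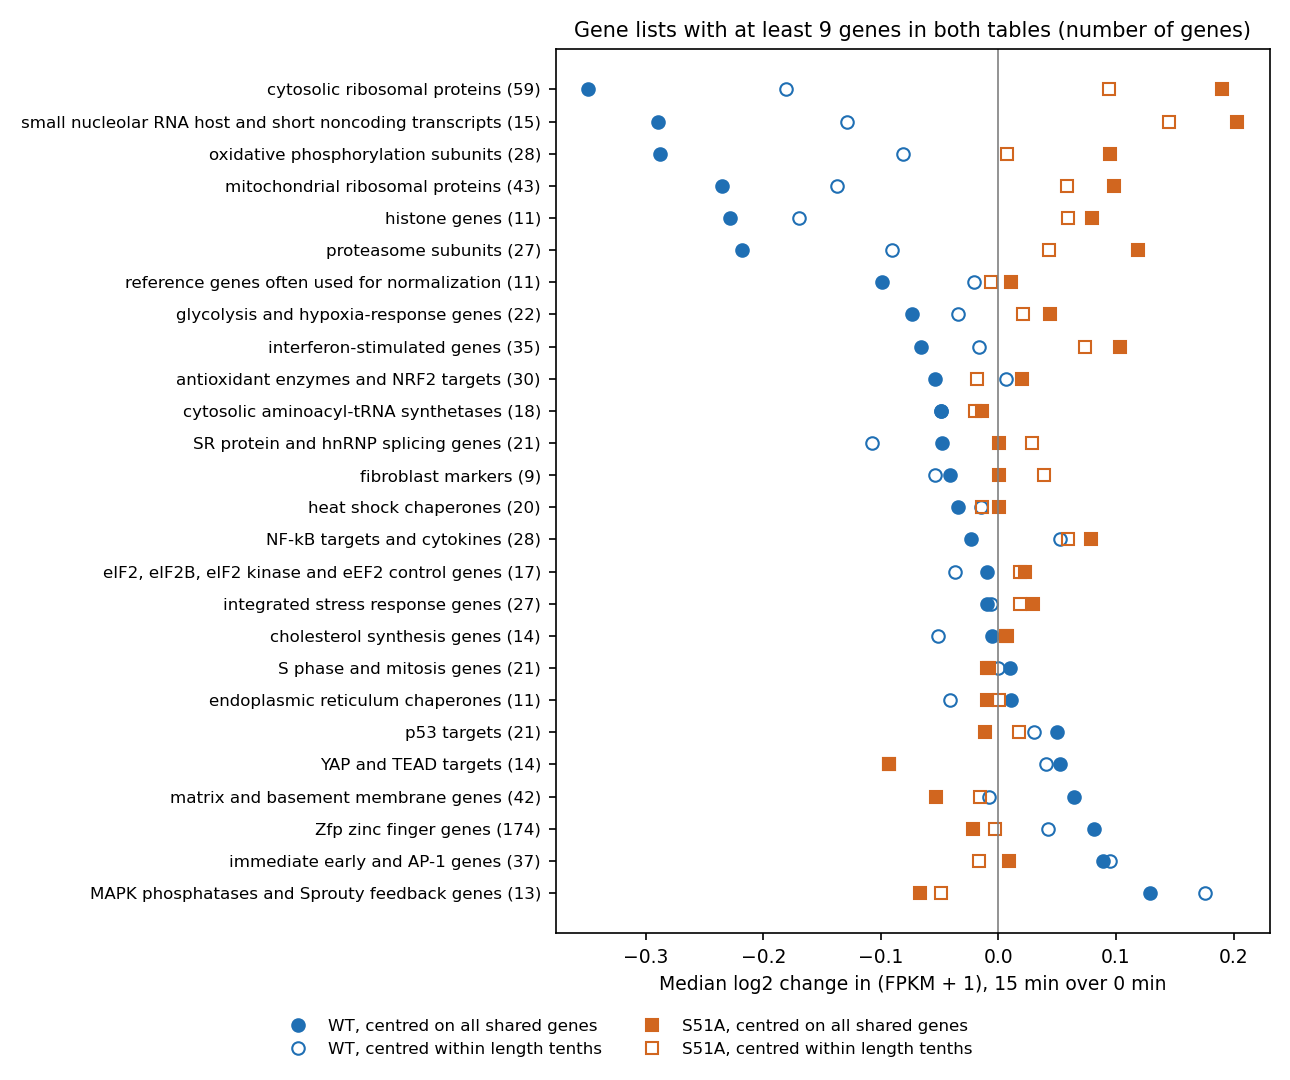
Median centred log2 change from 0 to 15 min of each gene list with at least 9 genes in both tables, for WT (circles) and S51A (squares), filled when centred on all genes and open when centred within 10 bins of transcript length. Ribosomal proteins lie at -0.35 in WT and 0.19 in S51A, and both move towards 0 when length is taken into account.

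The largest positive changes in S51A were those of Mir6236 and Rn45s. The locus deposited as Mir6236 (chromosome 9, 110281287 to 110281409), which in such libraries does not measure a mature miRNA, was at 10880 and 28920 FPKM in S51A and at 13120 and 10810 FPKM in WT. Rn45s, the ribosomal RNA precursor (chromosome 17, 39842997 to 39848829), was at 34.1 and 83.3 FPKM in S51A and at 48.2 and 35.5 FPKM in WT. The S51A changes were 1.39 and 1.25, and the WT changes -0.29 and -0.44. Past 2-fold with them was Gm15056, a predicted gene at 1.06 and 3.53 FPKM in S51A and listed at 0 in WT at both times. The remaining 3 genes higher past 1.5-fold in S51A, beside Gadd45b and Ier5l, were weakly expressed. Kbtbd6, a ubiquitin ligase adaptor, was at 1.44 and 2.73 FPKM in S51A. Hist2h2be, a histone gene, was at 0.847 and 2.22 FPKM, and Gm9958 at 0.864 and 2.40 FPKM. Libraries were made from polyadenylated RNA, in which ribosomal RNA is a remainder of selection, and its level moved with the group. Its part in the other changes was not tested. Ass1, the citrulline-using enzyme argininosuccinate synthase (chromosome 2, 31470270 to 31520670), was also lower past 1.5-fold in S51A. It was at 1.55 and 0.277 FPKM in S51A and at 8.69 and 6.92 FPKM in WT.

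The direction of the deposited call between the lines turned between 0 and 15 min for 118 genes (1.85%). Of these, 87 were higher in S51A at 0 min and lower at 15 min, with a median length of 9488 nt, and 31 went the other way, with a median length of 1144 nt. Most turned across a small gap, since the median of the larger fold between the lines was 1.37 in the 87 and 1.31 in the 31. Lyz2, named after its values were seen, was the only one past 2-fold at both times. In the authors' deposited table its log2 ratio of S51A to WT was -2.15 at 0 min and 1.14 at 15 min. The authors' deposited table gave Egr1 1.01 and -0.80, Fabp4 -0.86 and 1.28, Cbl 0.57 and -0.89, and Rn45s -0.50 and 1.23.

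Most of the listed WT changes were not present at 120 min. Of the 18 genes higher past 1.5-fold in WT, 13 were listed at 120 min, and 8 of those were within 1.25-fold of their untreated level. The exceptions were Btg2, Fos, Gm9958, Spen and Tnks. Levels at 120 and 0 min were compared as FPKM plus 1, without centring. Cbl, at 6.06 FPKM untreated and 7.67 at 120 min, and Tram2, at 5.39 and 4.29 FPKM, were within 1.25-fold only on that scale. Of the 14 lower, 8 were listed and 7 were within 1.25-fold, all but Lce1h. In S51A, 7 of the 8 higher and all 6 lower were listed, and 0 of them were within 1.25-fold of the untreated level. The 7 higher genes were above it at 120 min too. Of the 6 lower, Egr1, Egr2, Fos, Cyr61 and LOC100504703 were then above it, the opposite direction, and Ass1, at 0.628 FPKM, was below it. The share of all genes within 1.25-fold at 120 min was not computed, so these counts have no background. In genes of all 3 tables, centred medians at 120 min in the shortest and longest 10% were -0.02 and 0.06 in WT. In S51A they were 0.88 and -0.56. The genes counted were picked by their 15 min values.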

How the data were processed

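Polyadenylated RNA of the 12 samples was sequenced as directional libraries with single 75 nt reads, per the labels' protocols. STAR, Cufflinks, Cuffdiff and mm10 are named, without versions, in the submitters' processing notes. Per the file headers, the authors' deposited tables hold log2 FPKM per line and time, a log2 ratio and a q-value, with replicates combined. Only genes at a q-value of at most 0.05 are listed, and a log2 FPKM of -10 stands for 0. A further 3 numeric columns were not used. FPKM were recovered, 1 was added as pseudocount, and changes were computed with Python 3.11.15 and pandas 2.3.3. The calculation was checked on simulated data. Deposited starts had 1 added. Named genes were the 10 highest and 10 lowest changes per line among genes with at least 5 FPKM, 8 each way by difference between lines, up to 3 per list, 6 with a turned call and a fixed set. Other named genes, and all past 1.5-fold, were chosen after their values were seen. Members and lists were chosen with earlier results of these data known. Alternatives covered the pseudocount, centring, low-value filters, the fold threshold and transcript length.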

Additional observations from a re-analysis of the deposited data

Results flagged for a closer look

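Fos was the only gene past 1.5-fold in opposite directions, higher at 15 min in WT (0.69) and lower in S51A (-0.82). The S51A change minus the WT change was -1.51 on the log2 scale. The difference was not tested, since each group has 1 deposited value.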

How the results depend on the processing

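With 1 value per group, leaving out a replicate could not be run. No paired analysis was possible because the columns carry no replicate numbers. Counts below are genes higher and lower past 1.5-fold in WT, then higher and lower in S51A (18, 14, 8 and 6), followed by list members past it in either line (11). A pseudocount of 0.1 gave 67, 77, 28 and 18, and 25 list members, with r of -0.357 between the lines. A pseudocount of 5 gave 0, 4, 3 and 3, and 6 list members. Genes with at least 5 FPKM in every group gave 11, 2, 4 and 3, and 5 list members, with r of -0.63. With at least 1 FPKM, WT lower was 9 and S51A higher 4. A threshold of 2-fold gave 0, 4, 3 and 2, and 3 list members, and 1.25-fold gave 248, 291, 65 and 63, and 113 list members. Centring within length bins, chosen after seeing the data as was 1.25-fold, gave 11 and 9 in WT, 5 higher in S51A and r of -0.279. Of the 18 and 14 WT genes, 6 and 8 were kept. The 118 turned calls became 1 when 2-fold was asked for at both times. No centring, or centring on genes with at least 5 FPKM, moved no count by over 1.5 times, and no named gene changed sign under any alternative run in the line in which it had passed 1.5-fold. In the other line, length bins changed the sign of Gpr161 and Trim56 in S51A and of Cyr61 and Gm15056 in WT. Low genes such as Lyz2 depend most on the pseudocount. The unknown depth limits all of these.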
